A study of Rattus norvegicus with 6 samples.

Results

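The mitochondrial ribosomal proteins are the nuclear-encoded protein components of the mitochondrial ribosome (mitoribosome), and their transcripts were followed here in 2 mural cell types of the rat brain. Members were taken as the listed genes whose symbol starts with Mrpl or Mrps followed by a number. This gave 72 of 14607 genes. Of these, 45 encode proteins of the large subunit and 26 of the small subunit. The last one, Mrps36, encodes a protein now known mainly as a part of the 2-oxoglutarate dehydrogenase complex.

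The mitoribosome translates the few messenger RNAs that are transcribed from mitochondrial DNA, all of which encode subunits of the respiratory chain or of ATP synthase. Its RNAs are made in the organelle, whereas every one of its proteins is made in the cytosol and imported. Compared with a bacterial ribosome it has less RNA and more protein, so that some of its proteins have a bacterial homologue and others are specific to mitochondria.

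RNA-Seq was carried out on mid-capillary pericytes (mcPCs) and on smooth muscle cells of the vessel wall (VSMCs), both from the brain cortex of male Sprague-Dawley rats aged 4 to 5 weeks, with 3 samples per cell type, each from a pool of rats. The labels name no treatment and no altered allele. VSMCs were sorted positively from arterioles with a fluorescent lectin (GSA-FITC), and mcPCs were what remained of the capillary filtrate once cells binding antibodies against CD31, CD11b, GLAST or O4 had been sorted away. The values used are the authors' means of each cell type, without values per sample, so no SD is given. No test was made between the cell types, and the authors' own comparison, which the same table holds, was not used.

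The labels were first set against marker genes. All 5 VSMC markers were lower in mcPCs, from Myh11 (smooth muscle myosin) at 5085 TPM, a length-corrected share of all transcripts, against 4.60 to Des (desmin) at 1841 against 13.0 TPM. All 5 mcPC markers were higher there, including the potassium channel genes Kcnj8 (17.2 against 345.5 TPM) and Abcc9 (12.4 against 320.4 TPM). The mcPC libraries also held other cells' RNA. The 9 listed of 12 erythrocyte markers were all higher, with a summed level of 7198 TPM against 542227 TPM, and Hba-a1 alone went from 3838 to 286193 TPM. Markers of leukocytes and microglia (6 of 14 listed) summed to 1.32 and 32.6 TPM, astrocyte markers (4 of 6) to 0.582 and 15.7 TPM, neuron markers (5 of 8) to 3.32 and 24.98 TPM, oligodendrocyte markers (6 of 8) to 7.23 and 7.03 TPM, and endothelial markers (11 of 13) to 498.4 and 215.9 TPM. The endothelial sum was mostly Esam, a gene that mural cells also express, and the other 10 summed to 11.1 and 32.0 TPM. By normalized counts 9 of the 11 were higher in mcPCs past 2-fold (median log2 ratio 4.29), among them Cldn5 (0.643 and 15.4 TPM). Of the oligodendrocyte markers 5 of 6 were also higher past 2-fold (median 1.82), although their TPM sums were alike. All listed markers of leukocytes and microglia, astrocytes and neurons passed 2-fold too, against 21.6% of all genes. The lowest defining markers in mcPCs were Aqp4 at 0.0865 TPM and Gfap at 0.270 TPM, both of astrocytes. The astrocyte markers Gja1 (0.125 and 2.68 TPM) and Slc1a3 (0.306 and 12.7 TPM) were much higher in mcPCs than in VSMCs. The part of these cells in the values below was not tested.

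All 72 members were measured in both cell types. Reads assigned to the listed genes came to a mean of 62.0 M for a sample of VSMCs and 48.0 M for one of mcPCs. Of these, a member received 195.7 to 3574 reads per sample in VSMCs (median 1047) and 107.7 to 1460 in mcPCs (median 473.5). In TPM, which corrects for transcript length and so allows a comparison between genes, the median member stood at 33.2 in VSMCs and 8.66 in mcPCs, against 12.7 and 3.59 for all genes. Its rank was thus nearly the same, at percentiles 72.0 and 72.4 of all listed genes. Together the members made up 0.317% of all TPM in VSMCs and 0.0759% in mcPCs. There, erythrocyte genes (the markers and the haemoglobin genes with Hba or Hbb symbols) took 54.8%. Fewer cells of a type and less RNA per cell cannot be told apart in such bulk samples.

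**Figure D1:**
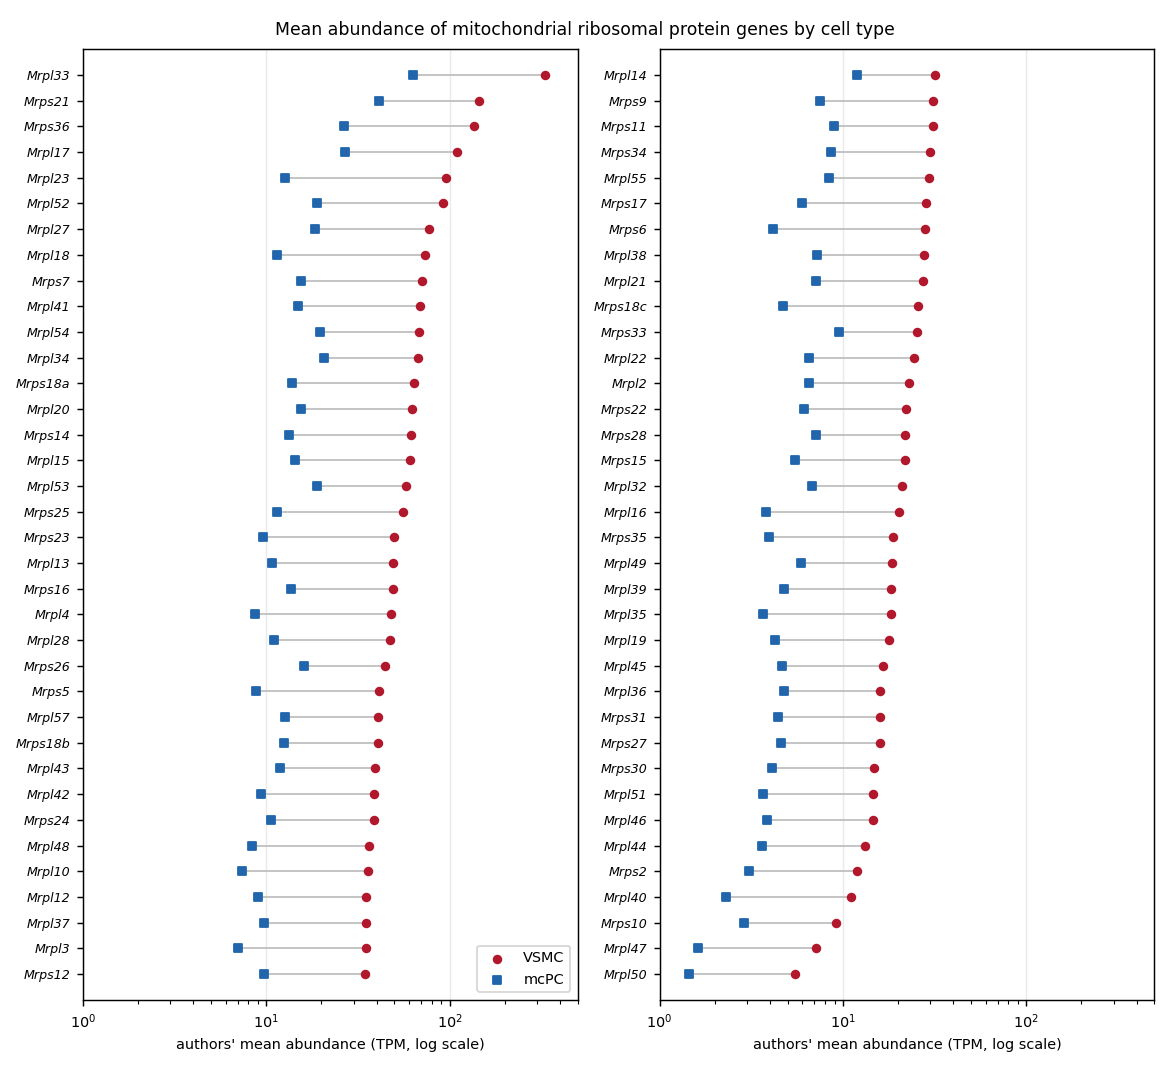
The authors' mean abundance of each of the 72 members in VSMCs (red circles) and mcPCs (blue squares), in TPM on a log axis, ordered by the VSMC value. All members lay lower in mcPCs on this scale, at a log2 ratio between -2.90 and -1.39, while the median of all genes was itself shifted by -1.72.

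The transcripts of these parts of a single particle differed widely in abundance. Mrpl33, a small protein of the large subunit, had the highest value in both cell types (331.8 and 63.5 TPM). That value rested on an effective length of 38.7 bases against a median of 736.0 for the members, and the gene's 370.7 normalized counts in VSMCs were below the members' median of 753.1. Next in VSMCs came Mrps21 at 145.2 TPM, Mrps36 at 136.6, Mrpl17 at 109.6 and Mrpl23 at 95.1. In mcPCs they were Mrps21 at 41.2, Mrpl17 at 26.9, Mrps36 at 26.7 and Mrpl34 at 20.6 TPM, so that Mrpl23 left the leading group. At the other end stood Mrpl50 (5.45 and 1.45 TPM), Mrpl47 (7.10 and 1.62 TPM), Mrps10 (9.20 and 2.90 TPM) and Mrpl40 (11.0 and 2.30 TPM). The highest member exceeded the lowest by 60.9-fold in VSMCs and 43.9-fold in mcPCs, and the 90th percentile exceeded the 10th by 4.99-fold and 5.14-fold. The order of the members was largely shared (Spearman's rho 0.946, Pearson's r of log2 TPM 0.958 over 72 genes, which share the same libraries and the same transcript lengths).

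To compare the cell types gene by gene, the log2 ratio of mcPCs over VSMCs was taken from the authors' mean normalized counts, and a gene was called lower or higher when its ratio passed 1.5-fold. The 95% interval beside a ratio covers counting error only. On this scale the members were close together and slightly lower in mcPCs. Their median ratio was -0.16, against 0.01 for all genes, and 54 of 72 were below 0 (60 of 72 with TPM centred on the median of all genes). Counts scaled without erythrocyte genes and mitochondrially encoded mRNAs turned that median to 0.049, with 34 of 72 members below 0, but moved the median of all genes to 0.21. The middle 50% of members spanned 0.40 on the log2 scale, against 1.34 for all genes and 1.15 for the 7593 genes within the members' range of normalized counts. This narrow span was not particular to the members. It was 0.36 for mitoribosome proteins under other symbol forms, 0.40 for assembly and ribosomal RNA modification factors and 0.41 for cytosolic ribosomal proteins. For nuclear subunits of oxidative phosphorylation it was 0.51, and for mitochondrial aminoacyl-tRNA synthetases 0.64. Of the counting intervals, 41 lay wholly below the median of all genes, 7 wholly above it, and 24 held it. Among all listed genes 44.3% of intervals lay wholly below and 43.9% wholly above, and among those in the members' range 45.5% and 44.6%.

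Of the 72 members, 7 were lower in mcPCs past 1.5-fold and none was higher. The count of lower members depended on the scale. It was 72 with TPM, 52 with counts at the same total and 3 without erythrocyte genes and mitochondrially encoded mRNAs. The median of all genes was itself -1.72, -0.55 and 0.21 on those scales, for which no share of all genes is given. With normalized counts 23.3% of all listed genes were lower and 30.0% higher, and among genes in the members' range 20.8% and 27.0%. Past 2-fold on that scale, 1 member was lower and none higher, against 13.8% and 21.6% of all genes. Among genes in the range the shares were 11.2% and 18.4%. On the other scales 72, 17 and 0 members were lower past 2-fold, in the same order. Between the 1.5-fold limits lay 65 members, as against 46.7% of all genes. With normalized counts, the share of members called was thus below the background in both directions.

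**Figure D2:**
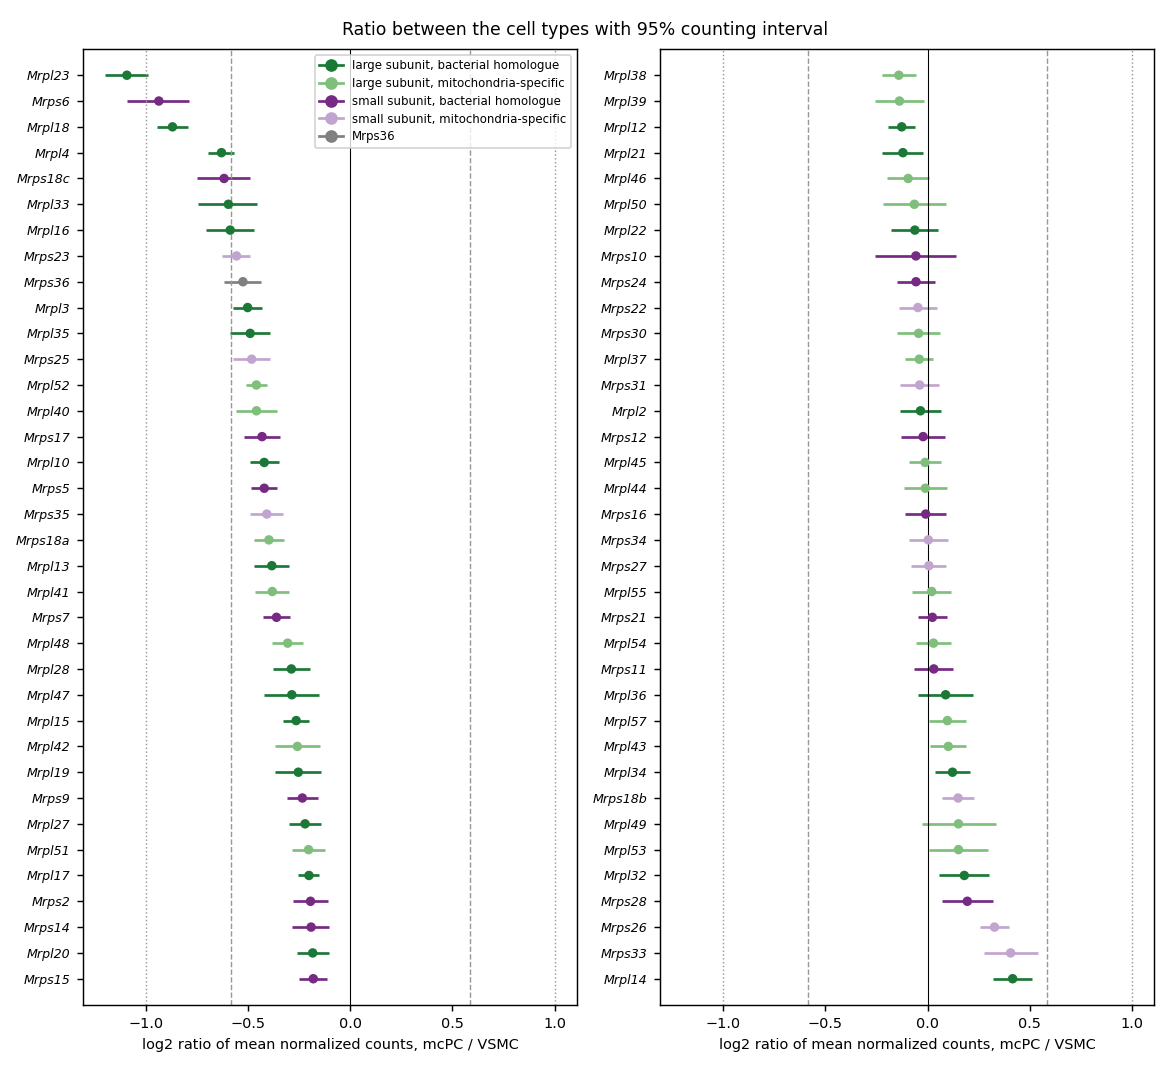
Log2 ratio of the authors' mean normalized counts (mcPC over VSMC) for each member, in ascending order, with bars for the 95% counting interval. Dashed and dotted lines mark 1.5-fold and 2-fold. The ratios run from -1.09 for Mrpl23 to 0.42 for Mrpl14, and dark symbols, the bacterial homologues, make up all 7 members past the lower dashed line.

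Mrpl23 was the member that differed most. It encodes a large-subunit protein at the rim of the tunnel through which the new chain leaves. Its normalized counts (ENSRNOG00000020354) were 916.0 in VSMCs and 428.7 in mcPCs, 2.13-fold lower, with a log2 ratio of -1.09 (interval -1.20 to -0.99). The interval held the 2-fold limit.

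Next came Mrps6, a small-subunit protein, at 399.7 and 208.2 normalized counts (-0.94, interval -1.09 to -0.79). Mrpl18, a protein of the central protuberance, had 1562 and 854.1 (-0.87, interval -0.95 to -0.80). These 3 members had the whole interval past 1.5-fold. The other 4 lay on the limit itself, with intervals that held it. They were Mrpl4 (1896 and 1224, -0.63), Mrps18c (449.6 and 292.6, -0.62), Mrpl33 (370.7 and 244.8, -0.60) and Mrpl16 (552.3 and 367.1, -0.59). Mrpl4 encodes a protein that in bacteria lines the exit tunnel, and Mrpl16 one that contacts transfer RNA. Just outside the limit were Mrps23 (1564 and 1063, -0.56) and Mrps36 (877.1 and 608.9, -0.53).

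At the upper end, Mrpl14 had 519.2 normalized counts in VSMCs and 693.2 in mcPCs, a ratio of 0.42 (interval 0.32 to 0.51). Its product sits at the face where the subunits join and is the landing site of the factor that keeps them apart. Mrps33 followed with 277.3 and 367.9 (0.41, interval 0.28 to 0.54), and Mrps26 with 984.4 and 1235 (0.33, interval 0.26 to 0.40). None of these passed 1.5-fold. The other 5 of the 8 highest were Mrps28 (0.19), Mrpl32 (0.18), Mrpl53 (0.15), Mrpl49 (0.15) and Mrps18b (0.15). In TPM, before any centring, these genes too were lower in mcPCs. Relative to the median of all genes, the TPM ratio was 0.30 for Mrpl14, 0.32 for Mrps33 and 0.24 for Mrps26.

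The subunits differed little, with a median ratio of -0.18 for the large and -0.06 for the small one. Split by origin, the 40 listed as bacterial homologues had a median of -0.21 and the 31 listed as specific to mitochondria one of -0.04. Mrps18a and Mrps18b, which have S18 as a distant relative but take other places, were counted with the latter, and moving them to the former left both medians at these values (42 and 29 genes). Mrpl55 (0.02), also counted with the latter, can be classed as a homologue as well and was not moved. All 7 lower members were homologues (5 of 24 in the large and 2 of 16 in the small subunit), and 0 of 31 mitochondria-specific members were called. As shares, 17.5% of the homologues and 20.8% of those of the large subunit were lower, no more than the background of 23.3% of all genes and 20.8% of genes in the range. The homologues had the lower median within each subunit (-0.26 against -0.07 in the large, -0.19 against -0.02 in the small) and also on TPM centred on all genes (-0.33 against -0.12). The classes were not tested against each other, since genes of one library are not replicates.

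By position in the ribosome, the central protuberance had the lowest median of the regions listed. This part of the large subunit faces the transfer RNAs. The 6 members listed for it were below 0 with normalized counts (median -0.26), but the list need not hold every protein of this part. Mrpl18 was at -0.87, Mrpl40 at -0.46, Mrpl48 at -0.31, Mrpl27, which in bacteria reaches towards the catalytic centre, at -0.22, Mrpl38 at -0.14 and Mrpl46 at -0.10.

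Around the exit of the tunnel, the 7 members had a median of -0.14. Apart from Mrpl23 they lay between Mrpl47 at -0.29 and Mrpl44 at -0.01, with Mrpl17 at -0.20, Mrpl39 at -0.14, Mrpl22 at -0.06 and Mrpl45, which attaches the ribosome to the inner membrane, at -0.01. Mrpl23 thus stood apart from its neighbours in the structure. For the stalk that recruits translation factors and its base, the 3 members listed were Mrpl10 (-0.42), Mrpl12 (-0.13) and Mrpl53 (0.15), here in the order of their ratios. The gene mrpl11 of the base, whose symbol does not follow the naming pattern, was at -0.63.

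In the small subunit, the head, which moves the messenger and transfer RNAs, had 7 members with a median of -0.19. They ran from Mrps35 (-0.41) and Mrps7 (-0.36) over Mrps9 (-0.23), Mrps14 (-0.19), Mrps10 (-0.06) and Mrps31 (-0.04) to Mrps33 (0.41). On TPM relative to all genes Mrps14 was lower, at -0.48, and Mrps10 turned to 0.08. The 4 members assigned to the decoding centre and the path of the messenger RNA were Mrps5 (-0.42), Mrps2 (-0.19), Mrps24 (-0.06) and Mrps12 (-0.02), with a median of -0.13.

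The 3 Mrps18 paralogs are relatives of a single bacterial protein, S18, and occupy different places. The product of Mrps18c keeps the bacterial position in the small subunit, that of Mrps18b lies elsewhere in the small subunit, and that of Mrps18a is built into the large subunit. Their ratios spread over much of the range of the members. Mrps18a had 1285 and 974.5 normalized counts in VSMCs and mcPCs (-0.40, interval -0.47 to -0.33), Mrps18b 829.9 and 920.5 (0.15, interval 0.07 to 0.23) and Mrps18c 449.6 and 292.6 (-0.62, interval -0.75 to -0.49). None of these 3 intervals overlapped another, but they cover counting error only and not the spread between isolations. In TPM the order in VSMCs was Mrps18a (64.4), Mrps18b (40.8) and Mrps18c (25.8), and in mcPCs 13.9, 12.6 and 4.70.

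The promoters of the 3 paralogs are shown because each holds the letters of a different factor known to act on nuclear genes for mitochondrial proteins. The windows are RefSeq sequences of GRCr8, another assembly than the one the reads were assigned to. They run 5′ to 3′ in the sense of the gene, from 250 bases before the start site to 50 after it. Capitals mark the matched letters, which are those of YY1 in Mrps18a, NRF1 in Mrps18b and, on the opposite strand, ETS/GABP in Mrps18c.
Mrps18a promoter, GRCr8 chr9:22367331-22367630, minus strand: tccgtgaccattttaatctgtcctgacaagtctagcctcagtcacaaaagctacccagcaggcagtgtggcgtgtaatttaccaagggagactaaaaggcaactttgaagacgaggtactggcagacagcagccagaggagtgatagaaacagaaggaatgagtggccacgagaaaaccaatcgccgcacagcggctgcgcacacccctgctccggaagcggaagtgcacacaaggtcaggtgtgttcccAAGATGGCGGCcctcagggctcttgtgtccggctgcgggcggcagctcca
Mrps18b promoter, GRCr8 chr20:2842756-2843055, plus strand: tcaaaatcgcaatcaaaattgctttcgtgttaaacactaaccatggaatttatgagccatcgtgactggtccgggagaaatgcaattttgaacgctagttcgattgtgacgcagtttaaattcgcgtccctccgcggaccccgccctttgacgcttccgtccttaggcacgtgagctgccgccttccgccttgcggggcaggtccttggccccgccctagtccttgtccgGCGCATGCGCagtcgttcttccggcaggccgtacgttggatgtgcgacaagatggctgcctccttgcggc
Mrps18c promoter, GRCr8 chr14:9122857-9123156, minus strand: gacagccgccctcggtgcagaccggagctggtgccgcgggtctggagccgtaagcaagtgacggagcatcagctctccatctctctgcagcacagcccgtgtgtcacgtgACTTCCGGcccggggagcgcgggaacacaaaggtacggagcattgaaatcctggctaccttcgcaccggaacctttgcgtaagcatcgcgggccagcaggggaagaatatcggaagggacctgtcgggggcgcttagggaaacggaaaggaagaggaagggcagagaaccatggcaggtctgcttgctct

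At least 1 window was found for 58 of the 72 members, and a gene was counted once whatever its number of windows. Letters were searched on both strands, as CCGGAAGT for ETS/GABP and, for NRF1 and YY1, as the runs in capitals above with 1 position free (the fifth in the NRF1 run and the third in the YY1 run). Mrps26 and Mrps27 held 2 kinds of letters each, which did not overlap. Each occurred in 8 of 58 members (13.8%), and 22 members (37.9%) had at least one. Among the 10884 listed genes with a window the shares were 9.79% for NRF1, 7.96% for ETS/GABP and 2.71% for YY1, and 18.9% had any. Over all 27457 genes of the promoter table they were 4.82% for NRF1, 4.2% for ETS/GABP and 1.22% for YY1, and 9.54% had any.

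The YY1 letters sat in a narrow place. In all 8 members that had them they began between 0 and 30 bases after the start site, from Mrps18a at 0 to Mrps10 at 30, whereas the NRF1 letters were spread from 229 bases before it (Mrpl45) to 29 after it (Mrps26). The YY1 letters contain ATGG, so they can overlap the first codon of a gene. The 8 members with NRF1 letters had a median ratio of 0.12 and included Mrpl14 (0.42), Mrps26 (0.33), Mrpl32 (0.18) and Mrps18b (0.15), the lowest being Mrpl17 at -0.20. The 50 members without had a median of -0.20. Among the other listed genes the order was the opposite, with -0.10 for 1057 genes with the letters and 0.01 for 9769 without. For YY1 the medians of members with and without were -0.06 and -0.20, and for ETS/GABP -0.26 and -0.16. Among the other listed genes they were -0.18 and 0.009 for YY1, again in the opposite order, and -0.085 and 0.008 for ETS/GABP. A match of letters is a description and not a site of binding.

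Other proteins of the mitoribosome are listed under symbols that do not follow the naming pattern. Of 11 such genes the median ratio was -0.12. Of the 5 with lower-case or provisional symbols, mrpl11, at the base of the stalk, was at -0.63 and LOC100359687, annotated as similar to Mrpl1, at -0.70, both past 1.5-fold. NEWGENE_1308196 (Mrpl30) was at -0.26, mrpl24 at 0.04 and mrpl9 at 0.24. The 6 known by other names, Dap3, Ptcd3, Aurkaip1, Chchd1, Gadd45gip1 and Ict1, lay between -0.38 (Chchd1) and 0.17 (Ict1). Ict1 encodes a hydrolase that frees stalled chains.

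Further genes of mitochondrial translation were read against the same background, 23.3% lower and 30.0% higher. Factors of assembly and ribosomal RNA modification had a median of -0.02, with 0 lower and 2 higher of 25. Their range ran from the methyltransferase gene Mrm2 (147.3 and 108.4 normalized counts, -0.44) to the assembly factor gene Mpv17l2 (435.3 and 883.2, 1.02). Translation factors, with other proteins listed beside them such as Slirp, Lrpprc and Oxa1l, had a median of -0.33, with 3 lower (18.8%) and 0 higher of 16. Slirp (-0.68) was among the 3 lower. The lowest was Mrrf, which encodes the factor that recycles ribosomes after a chain is finished (1336 and 688.8, -0.95), and the highest Pdf, a deformylase of new chains (0.31). Mitochondrial aminoacyl-tRNA synthetases had a median of -0.14 with 1 lower (Mars2, -0.72) and 1 higher (Aars2, 0.64) of 20. Genes of mitochondrial DNA maintenance and transcription had one of 0.03, with 3 lower and 2 higher of 18, from Mterf2 (-1.95, on 32.5 normalized counts in mcPCs) to Exog (0.77).

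**Figure D3:**
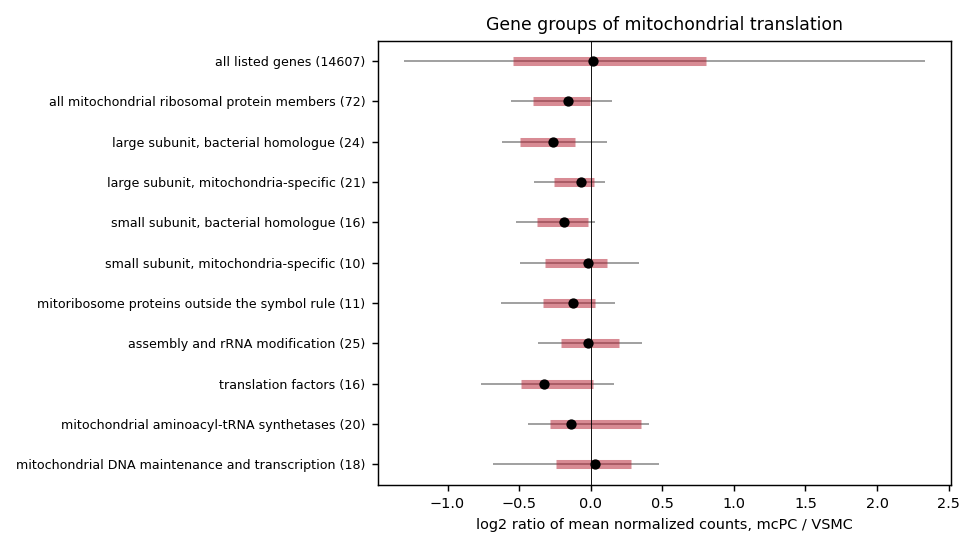
Log2 ratio of mean normalized counts (mcPC over VSMC) by gene group, with the number of genes in parentheses. Points are medians, thick bars the middle 50% and thin lines the 10th to 90th percentile of genes. The members span -0.55 to 0.15 by the thin line, and of the groups drawn the translation factors, with the proteins listed beside them, have the lowest median at -0.33.

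The messages that the mitoribosome translates went the other way. All 13 mitochondrially encoded mRNAs were higher in mcPCs, from Mt-atp6 (2.06) to Mt-nd4l (2.77), with a median of 2.31. Their share of all TPM was 8.26% in VSMCs and 11.6% in mcPCs. Set against the summed TPM of the 72 members, they amounted to 26.1-fold in VSMCs and 153.3-fold in mcPCs. Libraries were made from polyadenylated RNA, and the part of the erythrocyte RNA in this difference was not tested.

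The nuclear-encoded subunits of oxidative phosphorylation (OXPHOS), which assemble with those products, had a median of -0.43. Of 83, 32 were lower (38.6%, against 23.3% of all genes) and 4 higher (4.8%, against 30.0%) past 1.5-fold, and the range ran from Ndufa4 (2203 and 576.1 normalized counts, -1.93), a subunit of complex IV, to Cox4i2 (5093 and 14014, 1.46), an alternative subunit of the same complex. Their summed TPM was 8.36-fold that of the members in VSMCs and 7.84-fold in mcPCs. Proteins of the cytosolic ribosome had a median of 0.05 (-0.02 with TPM centred on all genes), with 3 lower (3.4%) and 5 higher (5.6%) of 89, and amounted to 23.1-fold and 29.1-fold of the members' TPM. By their medians the members lay between the OXPHOS subunits and the cytosolic ribosome, and all of these nuclear groups were far from the mitochondrially encoded mRNAs.

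**Figure D4:**
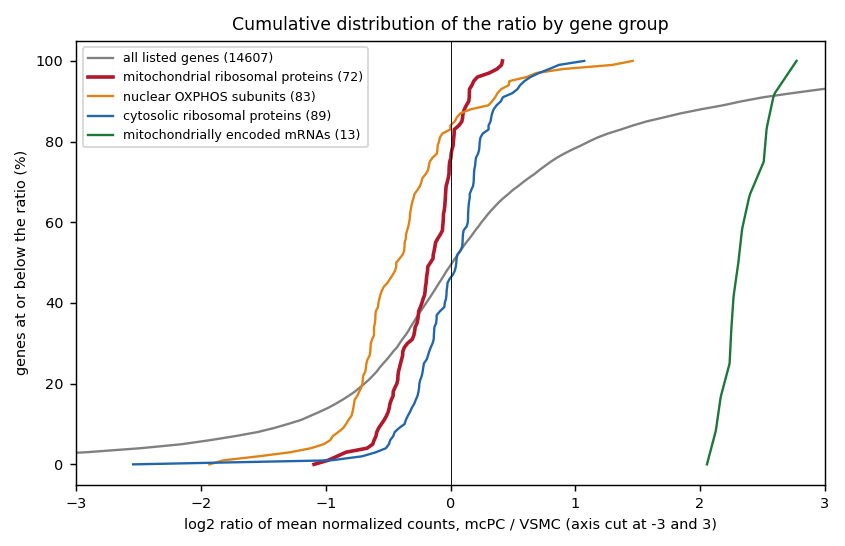
Cumulative share of genes at or below a given log2 ratio of mean normalized counts (mcPC over VSMC), for all listed genes and 4 groups, with the axis cut at -3 and 3. The curve of the members is steep with a median of -0.16, between OXPHOS subunits (-0.43) and cytosolic ribosomal proteins (0.05), and that of the mitochondrially encoded mRNAs starts at 2.06.

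A gene with a single annotated transcript has the same length in both cell types whatever is expressed, so that lengths are given only for where they differed. The mean effective length differed by over 0.1 on the log2 scale for 3 members, Mrps36 (209.7 and 238.9 bases), Mrpl10 (1284 and 1413) and Mrpl57 (515.8 and 559.3), all longer in mcPCs, while 59 members had equal lengths within 0.001. Across the members the ratio went weakly with mean normalized counts (rho -0.312), with TPM in VSMCs (-0.225) and with length (-0.226), each over 72 genes of the same libraries. Pearson's r with the log2 of these values was -0.256, -0.268 and -0.055, so the relation with length depended on the measure. The VSMC value is also the denominator of the ratio, so part of a negative relation with TPM in VSMCs is built in. In the GRCr8 annotation 16 members overlap another protein-coding gene, among them Mrps6 (with Slc5a3), Mrpl16 (with Stx3) and Mrpl14 (with Tmem63b). The libraries were strand specific, and an effect of these overlaps on the values was not tested.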

How the data were processed

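RNA-Seq of polyadenylated RNA was carried out by the authors on 3 VSMC and 3 mcPC samples, from 3 isolations, in 4 runs per library. Reads were filtered with Eoulsan and quantified with Salmon 0.8.0 against Ensembl transcripts (Rnor_6.0), then summed per gene with tximport and normalized with DESeq2. The deposited table gives means of each cell type only. TPM values, estimated counts, mean effective lengths (in bases) and normalized counts, a signal value that is the count over the normalization factor, were all made by the authors. Estimated counts are deposited as means per run, since 69.8% (VSMC) and 71.5% (mcPC) of them are whole multiples of 1 read over 12 runs, within 0.01 reads. The table's other columns hold the authors' own comparison (fold change, standard error and p-values) and were not used.

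Log2 ratios were computed from normalized counts with a pseudocount of 1 and called past 1.5-fold or 2-fold. Their 95% intervals are exact binomial (Clopper-Pearson) on the read totals of 12 runs and cover counting error only. TPM ratios used a pseudocount of 0.1. The count test planned for values per sample was not run, since the table gives means, and no p-value is given. Subunit classes, regions and gene lists were written from textbook knowledge. Members and lists were chosen with earlier results of these data known. Genes named are the 8 highest and 8 lowest ratios, the 5 highest and 3 lowest TPM in each cell type, the regions, the Mrps18 paralogs, members with changed length, and the highest and lowest of each other list. The genes outside the naming pattern were found by their symbols after the table was seen, as were the positions of promoter letters. A comparison of the paralogs' proteins was not made. Promoters were matched by gene identifier. Alternatives were other pseudocounts, TPM, total counts, counts without erythrocyte genes, centring on all genes, filters and leaving out Mrps36. The steps were tested on simulated data. Scripts ran in Python 3.11.15 with pandas 2.3.3, numpy 2.4.6, matplotlib 3.10.9 and scipy 1.17.1.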

Additional observations from a re-analysis of the deposited data

How the results depend on the processing

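The members' median minus that of all genes was between -0.22 and -0.16 on the log2 scale under each scaling tried, but a factor common to all genes cannot change this difference, so the normalized, TPM and plain count values are the only ones here that are separate (-0.18, -0.22 and -0.16). Their own median moved with the scale, as did that of all genes, which was 0.01 with normalized counts, -1.72 with TPM and -0.55 with counts at the same total. The counts of lower members on these other scales have no share of all genes beside them and are not read as results about the members. With TPM the members' median was -1.94, and 72 were lower past 1.5-fold and 72 past 2-fold. With counts at the same total it was -0.72, with 52 and 17 lower. With TPM centred on all genes 2 members were lower past 2-fold. Without the erythrocyte list and the mitochondrially encoded mRNAs, an alternative chosen after seeing the data, the median was 0.049, with 3 lower past 1.5-fold and 0 past 2-fold. With the 5 mitoribosomal proteins under lower-case or provisional symbols, also added later, the median with normalized counts was -0.18. On that scale 9 were lower past 1.5-fold, as were 23.3% of all genes. Both filters removed 0 members and so left every value as it was by construction. Other pseudocounts, centring of normalized counts and leaving out Mrps36 kept the median within the counting error and the counts within 1.5 times. Of the 45 members named, 21 moved by more than the half-width of their counting interval with centred TPM and 5 with counts without the erythrocyte list, and in both cases Mrps10 and Mrps21, near 0, changed sign. In uncentred TPM 11 named members changed sign, and 13 did without the erythrocyte list and the mitochondrially encoded mRNAs.

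No paired analysis was possible because the table holds means of each cell type with no column per isolation, and no sample was left out in turn for the same reason. The counting intervals, with a median half-width of 0.091 on the log2 scale, do not cover the spread between isolations.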
